A study of Mus musculus with 4 samples.

Results

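The interleukin-6 (IL-6) family of cytokines, with receptors and the inhibitor Socs3, was examined in articular cartilage of young and adult mice with and without a full-thickness injury. The 9 members were taken from the gene table by symbol, and they were the cytokines Il6, Il11, Lif, Osm and Clcf1, the receptors Cntfr, Il6st and Osmr, and Socs3. The table held 24532 genes, of which 18181 were above 0 in at least 1 library, and all 9 members were among the latter. Cntfr was selected on its large fall in adult injured cartilage, so its values in that comparison are a description and support nothing.

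Wild-type C57BL/6 mice in 4 groups, with 1 pooled RNA sequencing library per group, were compared. Young mice were 3 weeks old. For the adult mice the study's methods give 10 weeks, while the sample title gives 12 weeks and another label field 14 weeks. Sham cartilage was pooled from 5 uninjured mice and injured cartilage from 10 mice at 3 days after surgery, and the label of the adult sham library spans days 3 to 14. The methods describe a full-thickness cartilage injury (FTCI) made in the patellar groove of the left femur, whereas the titles name destabilization of the medial meniscus (DMM), and the methods were followed here. All libraries carried the label chondrocyte, and the 10 chondrocyte markers (Acan, Col2a1 and others) were each at 1 FPKM or more in every library, with a summed level of 12960 to 18263. Within that list 6 of 10 markers were lower and 1 higher at 2-fold or more in adult than in young sham cartilage (10.6% and 2.66% of all genes), and Col2a1, the main cartilage collagen, went from 9349 to 3173 FPKM while Comp went from 1324 to 7203 FPKM. FPKM are fragment numbers scaled for transcript length and for library size, so levels can be set side by side between genes. With 1 library per group no difference has a replicate check, no error can be given, and no test was made.

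IL-6 family cytokines act through receptor complexes that share the signal-transducing chain gp130, which is encoded by Il6st. Further receptor chains, some of them shared between cytokines, set which cytokine is bound, such as the oncostatin M receptor (Osmr) for oncostatin M or the ciliary neurotrophic factor receptor (Cntfr) for cardiotrophin-like cytokine factor 1 (Clcf1). Bound receptors activate JAK kinases and the transcription factor STAT3, and STAT3 induces Socs3, which binds gp130 and the JAK kinases and ends the signal. In joints the family is known for its part in inflammation, in the acute-phase response and in the turnover of cartilage and bone.

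The sequence upstream of the start was read for 7 members with an entry in RefSeq (13 windows of 250 bases, build GRCm38.p6, the same sequence as mm10), and Osm and Clcf1 had none. Sequences of Il6, Il11 and Socs3 are shown, as 3 of the 4 members whose windows hold a motif that was searched for on both strands. Of the window of Lif, the remaining member, the match alone is given. The STAT motif was written TTCNNNGAA and was found in 7.02% of all 32851 windows in the table. The AP-1 motif was written TGANTCA and was found in 6.75% of them. Capitals mark the match, and each run is written 5′ to 3′ and ends at the base before the listed start.
Il6, chr5:30012864-30013113, plus strand, upstream of the gene: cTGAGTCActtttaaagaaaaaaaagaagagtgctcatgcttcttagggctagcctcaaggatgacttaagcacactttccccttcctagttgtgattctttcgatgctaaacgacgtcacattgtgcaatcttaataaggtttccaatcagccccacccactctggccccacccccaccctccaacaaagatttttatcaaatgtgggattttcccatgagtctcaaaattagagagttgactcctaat
Il11, chr7:4778142-4778391, minus strand, upstream of the inner of 2 listed starts: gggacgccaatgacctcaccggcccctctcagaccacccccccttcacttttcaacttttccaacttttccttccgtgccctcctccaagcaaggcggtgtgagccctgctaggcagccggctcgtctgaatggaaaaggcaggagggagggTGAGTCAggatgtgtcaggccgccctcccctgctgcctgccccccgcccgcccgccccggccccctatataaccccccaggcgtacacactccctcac
Socs3, chr11:117969367-117969616, minus strand: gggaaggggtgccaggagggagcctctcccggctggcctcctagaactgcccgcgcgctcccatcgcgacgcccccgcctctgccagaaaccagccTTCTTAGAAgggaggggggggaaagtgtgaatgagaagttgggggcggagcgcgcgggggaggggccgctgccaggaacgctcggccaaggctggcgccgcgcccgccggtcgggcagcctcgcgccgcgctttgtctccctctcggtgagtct
The AP-1 match of Il6, TGAGTCA, began 249 bases before the start, and that of Il11, TGAGTCA, began 98 bases before it. Lif held TGACTCA 228 bases before its start. The STAT match of Socs3, TTCTTAGAA, began 154 bases before the listed start, and Socs3 was the 1 member of 7 with such a match. This window lies inside the gene span of Socs3 (chr11:117966079-117970336), not upstream of the whole gene. No match was found in the windows of Cntfr, Il6st or Osmr, and the windows of Cntfr and Osmr likewise lie inside the gene span. A match describes letters in a window, and nothing about the binding of a factor was measured.

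**Figure D1:**
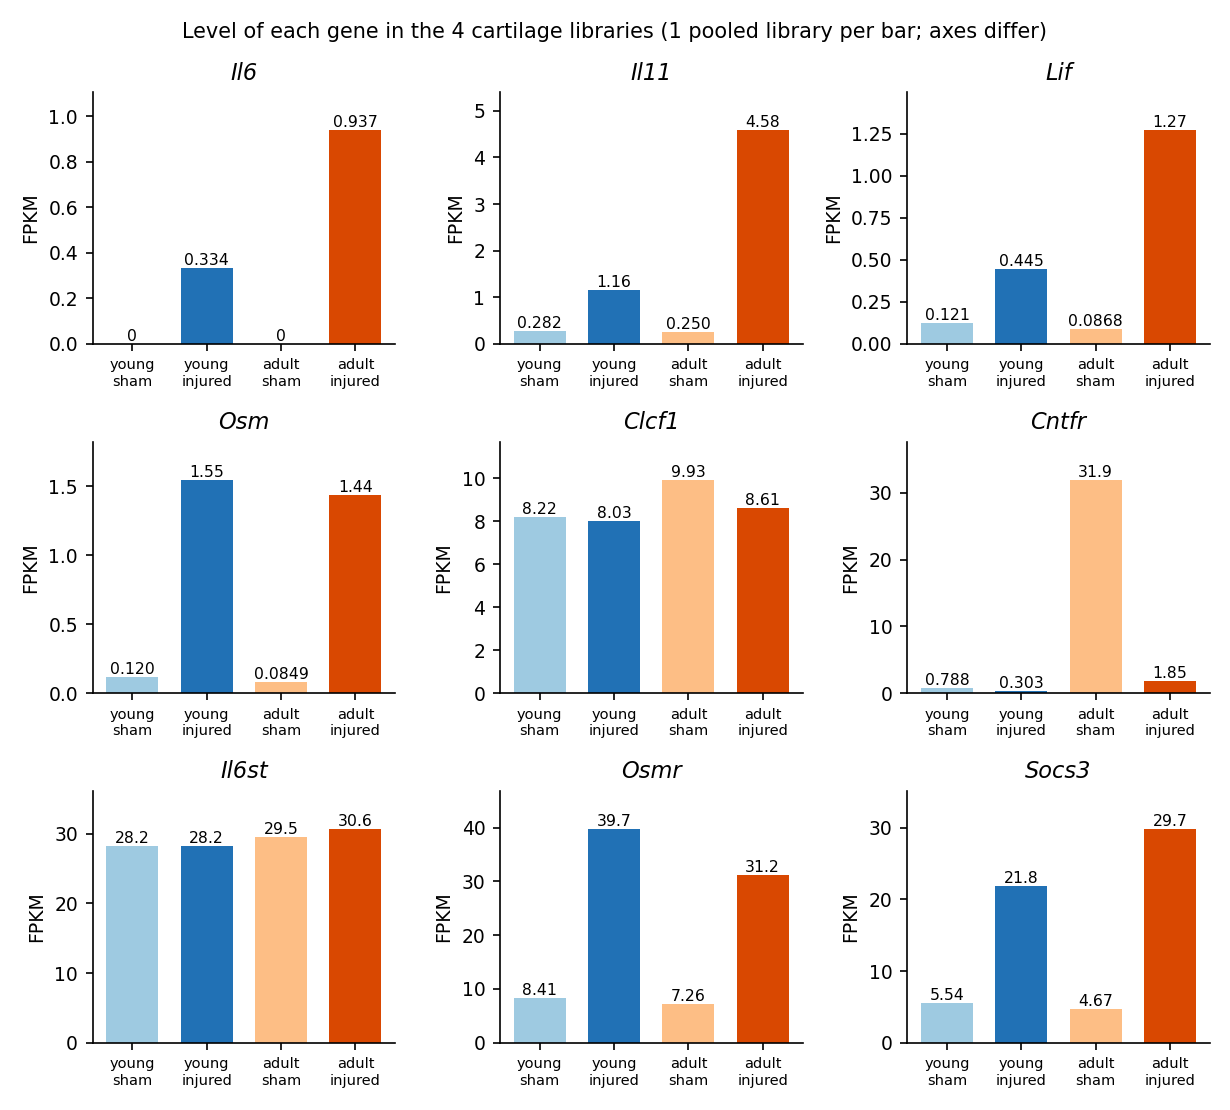
Bars give the level of each member in FPKM (y axis, starting at 0 and differing between panels) in sham and injured cartilage of young (blue) and adult (orange) mice, with 1 pooled library per bar and no error bars. Il6, Il11, Lif, Osm, Osmr and Socs3 stand higher in both injured libraries than in the sham library of the same age, Clcf1 and Il6st are level, and Cntfr stands high in the adult sham library alone, at 31.9 FPKM.

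In young cartilage 3 of 9 members (Osm, Osmr and Socs3) were higher at 2-fold or more after injury and 0 were lower. Among all 18181 genes 4.57% were higher and 1.27% lower by the same threshold, which is a difference of 1 or more in log2(FPKM + 1). In adult cartilage 5 members (Il11, Lif, Osm, Osmr and Socs3) were higher and 1 (Cntfr) was lower, against 6.90% higher and 1.46% lower among all genes. Cntfr was chosen by this fall, so its count as lower supports nothing. With median-of-ratios scaling the adult split moved from 1255 higher and 266 lower genes to 866 higher and 455 lower. The members' median log2 ratio was 0.42 (young) and 1.06 (adult), beside 0.00 and 0.14 for all genes tested. Without Il6, which was listed at 0 in both sham libraries, the members' medians were 0.56 and 1.11. For the 10891 genes at 1 FPKM or more in all libraries the median was -0.04 (young) and 0.23 (adult), so adult ratios close to 0.23 lie at the middle of the expressed genes. A value of FPKM + 1 understates the change of genes below a few FPKM, and ratios of FPKM are therefore given for the cytokines too. With a pseudocount of 5 FPKM in place of 1, Osm (0.35 young and 0.34 adult), Il11 (0.87 adult) and Lif (0.30 adult) no longer passed 2-fold. With 0.1 FPKM, Il11 (1.72), Lif (1.3) and Cntfr (-1.14) passed it in young cartilage too, as did Il6 at both ages, for which no fold is given because its sham libraries are listed at 0. With the libraries scaled to equal sums (TPM), Il11 (1.01) passed it in young and Il6 in adult cartilage. TPM scaling also raises every value against the added 1 FPKM, and 973 (young) and 2009 (adult) of all genes were then higher.

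**Figure D2:**
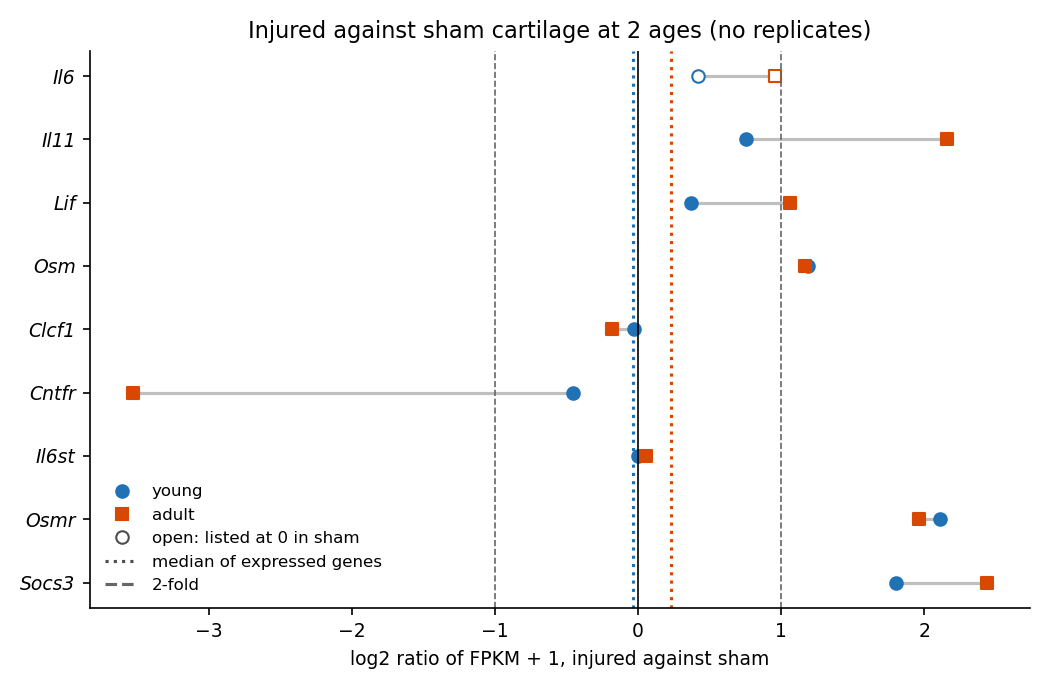
The x axis gives the log2 ratio of FPKM + 1 of injured against sham cartilage for each member (y axis), with circles for young and squares for adult mice, open where the sham library is listed at 0. Dashed lines mark 2-fold and dotted lines the median of 10891 expressed genes (-0.04 young, 0.23 adult). Osm, Osmr and Socs3 lie right of the 2-fold line at both ages, Il11 and Lif lie right of it in adult mice, and Cntfr lies far left in adult mice, at -3.53.

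Among the cytokines, Il6 (chr5:30013114-30019975 in GRCm38.p6, as are all positions here), the founding member of the family and a driver of the acute-phase response, was listed at 0 in both sham libraries. Its level was 0.334 FPKM in young injured and 0.937 FPKM in adult injured cartilage. Both injured libraries thus stood above both sham libraries, and no fold against 0 is given. If the smallest step of the FPKM values is 1 fragment, these levels stand for about 10 and 27 fragments with the longest Il6 transcript, or 6 and 16 with the shortest. The adult injured level was 2.81 times the young injured level, a log2 ratio of young against adult of -0.54, short of 2-fold on the FPKM + 1 scale.

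Il11 (interleukin-11, chr7:4772373-4782907), which signals through its own receptor chain and gp130 and is known in bone and fibroblasts, was measured at 0.282 FPKM in the young and 0.25 in the adult sham library, and 1.16 in the young and 4.58 in the adult injured library. The sham libraries were close together, and the adult injured library was the highest. The ratio of FPKM was 4.11 in young cartilage (log2 ratio of FPKM + 1 of 0.75) and 18.3 in adult cartilage (log2 ratio 2.16), where Il11 ranked 148 of 18181 genes by size of rise. The adult ratio was the larger by 1.41 on the log2 scale, the widest gap between the ages among the members that were higher after injury.

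Lif (leukaemia inhibitory factor, chr11:4257568-4272514), which binds Lifr with gp130, was at 0.121 FPKM in the young and 0.0868 in the adult sham library, and 0.445 in the young and 1.27 in the adult injured library. The order of the libraries was that of Il11. The ratio of FPKM was 3.67 at the young and 14.6 at the adult age. Log2 ratios of FPKM + 1 were 0.37 (young) and 1.06 (adult), and the latter was 0.93 with quantile normalization, below 2-fold.

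Osm (oncostatin M, chr11:4236785-4241026), a cytokine known as a product of macrophages and neutrophils that acts on cartilage cells through Osmr, was at 0.120 FPKM in the young and 0.0849 in the adult sham library, and 1.55 in the young and 1.44 in the adult injured library. Unlike Il11 and Lif, the injured libraries of both ages lay close together. After injury the log2 ratio was 1.19 at the young and 1.17 at the adult age, with ratios of FPKM of 12.9 and 16.9. Osm and Lif are neighbours on chromosome 11, 16541 bases apart with 0 genes between them in GRCm38.p6. The low counts behind the sham levels, about 7 and 6 fragments for Osm, make these ratios coarse.

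Clcf1 (chr19:4214238-4223505), which binds Cntfr, was the most abundant of the 5 cytokines in every library. It was measured at 8.22 FPKM in the young and 9.93 in the adult sham library, and 8.03 in the young and 8.61 in the adult injured library. The range over the libraries was narrow, and the log2 ratios after injury were -0.03 in young and -0.19 in adult cartilage. Clcf1 overlaps another gene on the same strand, with which it shares 7.33% of its transcript words of 31 bases, so its level is uncertain.

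Among the receptors, Il6st (chr13:112464070-112506860) was level across the libraries, at 28.2 FPKM in the young and 29.5 in the adult sham library, and 28.2 in the young and 30.6 in the adult injured library. Injury gave log2 ratios of -0.00 (young) and 0.05 (adult), and the sign of each turned with the scaling (0.02 and -0.22 with median-of-ratios scaling). The shared signalling chain was thus present at a like level in all 4 libraries, and within the sham libraries it stood first in young and next to Cntfr in adult cartilage.

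Osmr (chr15:6813568-6874968), the chain that pairs with gp130 to bind oncostatin M, was at 8.41 FPKM in the young and 7.26 in the adult sham library, and 39.7 in the young and 31.2 in the adult injured library. Injured libraries stood above sham libraries at both ages, and Osmr was the most abundant member in each injured library. Its log2 ratio was 2.11 (young) and 1.97 (adult), with ratios of FPKM of 4.71 and 4.30, and Osmr ranked 181 and 223 by size of rise. In both ages the ratio was past 2-fold under every pseudocount and scaling tried, from 1.56 to 2.22.

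Cntfr (chr4:41657498-41697091), a receptor chain held at the membrane by a lipid anchor and known in neurons and skeletal muscle, had another pattern. Its level was 0.788 FPKM in the young and 31.9 in the adult sham library, and 0.303 in the young and 1.85 in the adult injured library. The adult sham library stood alone, and the other 3 libraries were below 2 FPKM. In adult cartilage the log2 ratio after injury was -3.53, a level 17.3 times lower, and this value is what Cntfr was chosen by. Ranked by size of fall it stood at place 5 of the 8055 genes whose mean reached 5 FPKM, between Serpina1d at -3.63 and Myl3, a myosin light chain of slow muscle, at -3.20. In young cartilage Cntfr was 2.60 times lower after injury, a log2 ratio of -0.46. The adult sham level was 40.5 times the young sham level (log2 ratio 4.20), the rise of rank 12 among 18181 genes. Both adult comparisons rest on the 1 adult sham library. Set against the young sham library in its place, which was tried after the values were seen, adult injured cartilage gave a log2 ratio of 0.67.

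The high Cntfr level in the adult sham library went with markers of skeletal muscle. All 7 muscle markers (Acta1, Ckm and others) were highest in that library, and their summed level was 486 FPKM in the young and 1127 in the adult sham library, and 490 in the young and 336 in the adult injured library. Of these, Acta1, skeletal muscle actin, was at 189 (young) and 500 FPKM (adult) in sham and at 182 and 98.0 FPKM in injured cartilage. A list of 6 slow-fibre genes, added after the values were seen, summed to 20.8 (young) and 73.6 FPKM (adult) in sham and to 11.9 and 7.75 FPKM in injured cartilage, and all 6 genes were highest in adult sham cartilage. The adult sham library was thus the highest in both sums, as it was for Cntfr. The part of muscle in the Cntfr values was not tested. In pooled tissue, more cells of a type and more RNA per cell cannot be told apart.

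The 3 genes whose pattern over the 4 libraries was most like that of Cntfr, out of 8055 genes, were Thbs4, Tcap and Gpld1. Thbs4, a thrombospondin of tendon and muscle, was at 55.9 FPKM in the young and 696 in the adult sham library, and 21.5 in the young and 91.8 in the adult injured library, and its centred log2 level differed from that of Cntfr by at most 0.52 in any library. Tcap, a sarcomere protein, was at 6.75 (young) and 81.2 FPKM (adult) in sham and at 4.59 and 13.5 FPKM in injured cartilage (at most 0.65). Gpld1, an enzyme that cleaves lipid anchors, was at 2.12 (young) and 30.3 FPKM (adult) in sham and at 1.13 and 6.07 FPKM in injured cartilage (at most 0.76). Each of the 3 genes was highest in adult sham and lowest in young injured cartilage, as was Cntfr. Likeness over 4 libraries is a description and carries no test.

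Socs3 (chr11:117966079-117970336), the feedback inhibitor of gp130 signalling, was at 5.54 FPKM in the young and 4.67 in the adult sham library, and 21.8 in the young and 29.7 in the adult injured library. The adult injured library was the highest and the sham libraries were close together. For Socs3 the log2 ratio was 1.80 (young) and 2.44 (adult), with ratios of FPKM of 3.94 and 6.37, and Socs3 ranked 276 and 86 by size of rise. The ratio was past 2-fold under every pseudocount and scaling tried, with values between 1.35 and 2.65.

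The genes most like Socs3 over the 4 libraries were Laptm5 (at most 0.12), Lat2 (0.18) and Csf3r (0.23), which are known from blood cells. Laptm5, a lysosomal protein of leukocytes, was at 9.69 (young) and 8.94 FPKM (adult) in sham and at 38.7 and 46.0 FPKM in injured cartilage. Macrophage markers moved in the same direction. The summed level of the 8 macrophage markers was 167 FPKM in the young and 232 in the adult sham library, and 1520 in the young and 1303 in the adult injured library, and 7 of 8 were higher at 2-fold or more at each age, against 4.57% (young) and 6.90% (adult) of all genes. For the 8 neutrophil markers the sums were 1091 (young) and 1505 FPKM (adult) in sham and 2266 and 1753 FPKM in injured cartilage, with 3 higher in young and 0 in adult cartilage. Between the injured libraries, 5 of the 8 macrophage markers were highest in young and 3 in adult cartilage, and most of the sum was Lyz2. All 5 endothelial markers were higher at 2-fold or more at each age, with sums of 14.4 (young) and 16.5 FPKM (adult) in sham and 72.9 and 60.6 FPKM in injured cartilage. The sum of the fibroblast and synovium markers was also higher in both injured libraries, at 1464 (young) and 1626 FPKM (adult) against 827 and 561 FPKM in sham. That sum was mostly Col1a1 and Col3a1, and Dpt of the same list had log2 ratios of -0.64 (young) and -1.08 (adult). The part of these cells in the Osm, Osmr and Socs3 values was not tested.

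**Figure D3:**
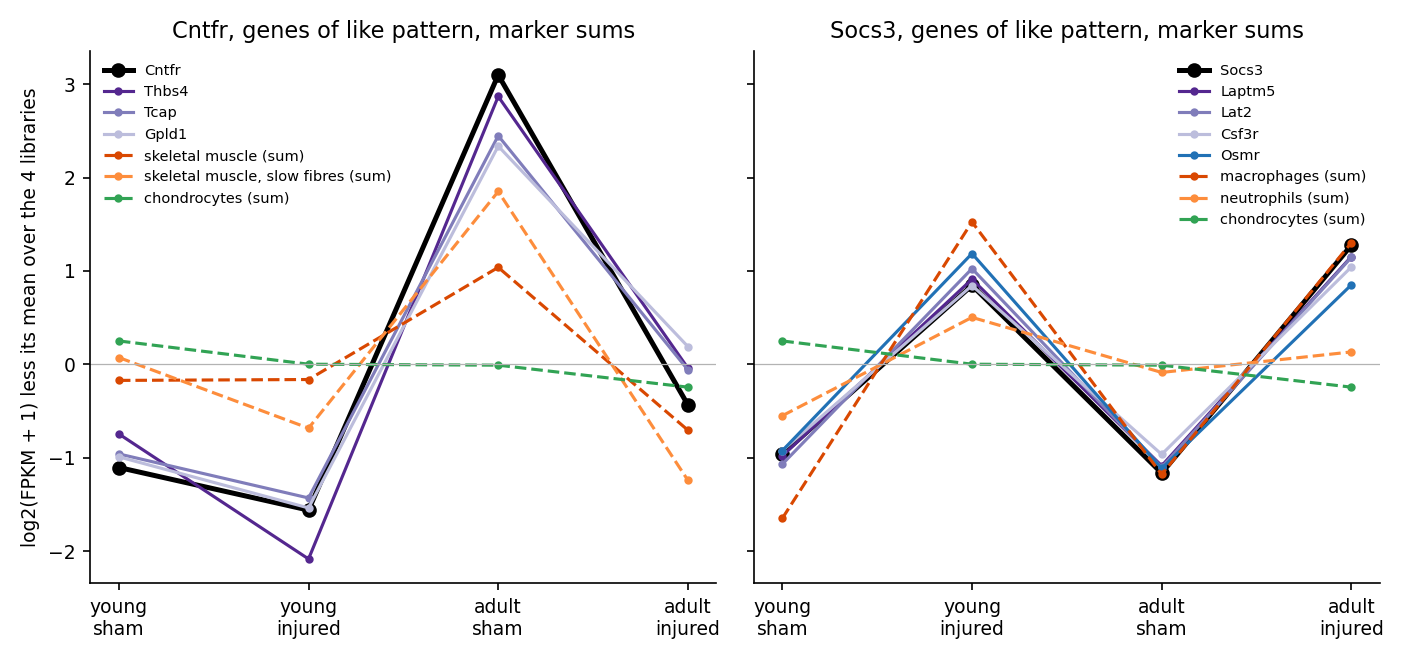
The y axis gives log2(FPKM + 1) less its mean over the 4 libraries (x axis), for Cntfr at left and Socs3 at right in black, with the 3 genes of most like pattern (purple) and Osmr (blue, right). Dashed lines are sums of marker genes. Cntfr, its like genes and both muscle sums peak in the adult sham library, and Socs3, its like genes, Osmr and the macrophage sum are higher in both injured libraries.

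Between the ages, sham cartilage differed at 2-fold or more in 1 of 9 members, Cntfr, which was higher in adults, and 0 members were lower. Among all genes 2.66% were higher and 10.6% lower in adult sham cartilage, and this split turned from 484 higher and 1934 lower to 972 higher and 1009 lower with median-of-ratios scaling. The small differences of Osmr (-0.19) and Socs3 (-0.21) between the sham libraries, like those of Il11, Lif and Osm, changed sign with the scaling. Clcf1 was 0.25 higher in adults, and kept its sign in all settings. Between the injured libraries 0 members were higher on the young side and 2 were lower, Il11 (-1.37) and Cntfr (-1.13), against 3.09% higher and 1.80% lower among all genes. Neither passed with a pseudocount of 5 FPKM (-0.64 and -0.37). Lif (-1.01) passed with the libraries scaled to equal sums (TPM). There the counts over all genes moved from 561 higher and 328 lower to 619 and 625. Because TPM scaling also raises every value against the added 1 FPKM, these moves cannot be put down to equal sums alone. These comparisons share libraries with the injury comparisons above and are not separate evidence.

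**Figure D4:**
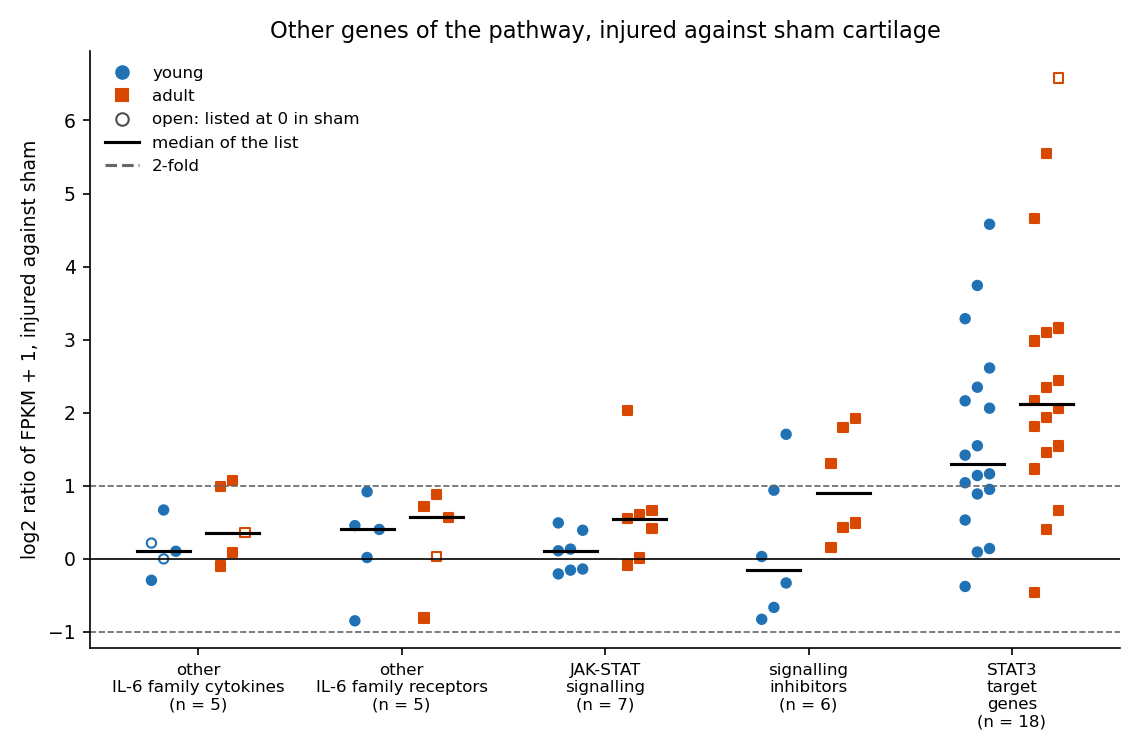
The y axis gives the log2 ratio of FPKM + 1 of injured against sham cartilage for other genes of the pathway, grouped by list (x axis, n is the number of genes above 0 in any library), with circles for young and squares for adult mice, open where the sham library is listed at 0. Black bars are list medians and dashed lines 2-fold. The STAT3 target genes stand highest, with medians of 1.29 in young and 2.12 in adult cartilage.

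Of 6 other IL-6 family cytokines, 5 were above 0 in any library. In young cartilage 0 of 5 were higher at 2-fold or more, in adult cartilage 1 (Ebi3) was, and 0 were lower at either age, where 4.57% and 6.90% of all genes were higher and 1.27% and 1.46% lower. Ebi3, a subunit of interleukin-27, had log2 ratios of 0.67 and 1.07, the latter being 0.94 with median-of-ratios scaling. Ctf1 (cardiotrophin 1) was at 9.37 (young) and 2.73 FPKM (adult) in sham and at 7.46 and 6.40 FPKM in injured cartilage, with log2 ratios of -0.29 (young) and 0.99 (adult).

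Among 6 other receptors of the family, 5 were above 0 and 0 of them passed 2-fold after injury in either direction or age, again beside those shares of all genes. Il11ra1, the receptor chain for interleukin-11, was the most abundant receptor of the family and stood lower in both injured libraries, at 84.9 FPKM in the young and 80.0 in the adult sham library, and 46.7 in the young and 45.3 in the adult injured library. The log2 ratios were -0.85 in young and -0.81 in adult cartilage, and the adult ratio was -1.08 with median-of-ratios scaling, past 2-fold. Il11ra1 shares 57.7% of its transcript words with a copy, so its level is uncertain. Il6ra, the chain that binds IL-6, was at 0.869 (young) and 0.798 FPKM (adult) in sham and at 2.53 and 2.32 FPKM in injured cartilage. The log2 ratios of Il6ra were 0.92 and 0.88, and they were 1.06 and 1.20, past 2-fold, with TPM scaling. That scaling makes the sums equal and also raises every value against the added 1 FPKM. Which of these changes moved Il6ra past 2-fold was not tested. Lifr, the chain shared by several family cytokines, had log2 ratios of 0.40 and 0.71.

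Of 7 genes of JAK-STAT signalling, 0 were higher at 2-fold or more in young and 1 (Stat3) in adult injured cartilage, and 0 were lower, beside the same shares of all genes. Stat3 was at 24.6 FPKM in the young and 11.1 in the adult sham library, and 35.0 in the young and 48.6 in the adult injured library. Stat3 had log2 ratios of 0.49 (young) and 2.03 (adult), where the adult sham level was the lowest of the 4. The kinases Jak1, Jak2 and Tyk2 lay between -0.15 and 0.66 in both comparisons.

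Among 6 other inhibitors of this signalling, 1 (Ptpn6) was higher in young and 3 (Socs2, Ptpn2 and Ptpn6) in adult injured cartilage, and 0 were lower, against 4.57% and 6.90% of all genes higher. The adult ratio of Socs2 was 0.94 with quantile normalization, below 2-fold. Ptpn6, the phosphatase SHP-1 of blood cells, was at 9.62 FPKM in the young and 5.53 in the adult sham library, and 33.6 in the young and 23.7 in the adult injured library, with log2 ratios of 1.71 and 1.92. Ptpn2, a phosphatase that acts on JAK kinases and STAT proteins, had ratios of 0.94 and 1.79. Socs1, a relative of Socs3, had ratios of 0.03 and 0.49, both short of 2-fold.

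Among 18 genes known as targets of STAT3, a list set with earlier results of these libraries known, 12 were higher at 2-fold or more in young and 15 in adult injured cartilage, and 0 were lower. Among all genes 4.57% (young) and 6.90% (adult) were higher. The list medians were 1.29 and 2.12, beside 0.00 and 0.14 for all genes tested. The adult count includes Saa3, an acute-phase protein, which was listed at 0 in the adult sham library, was at 0.0719 FPKM in the young sham library, and stood at 24.6 (young) and 94.9 FPKM (adult) after injury. Lcn2 (lipocalin 2), an iron-binding protein of the acute phase, was at 64.6 FPKM in the young and 82.7 in the adult sham library, and 639 in the young and 2117 in the adult injured library. The injured libraries stood well above both sham libraries, with log2 ratios of 3.29 and 4.66. Bcl3, a partner of the NF-kappaB proteins, was at 1.17 (young) and 0.915 FPKM (adult) in sham and at 10.1 and 16.1 FPKM in injured cartilage, with log2 ratios of 2.35 and 3.16. Timp1, an inhibitor of matrix metalloproteinases, was at 106 (young) and 53.0 FPKM (adult) in sham and at 477 and 461 FPKM in injured cartilage, with log2 ratios of 2.16 and 3.10. Of the others, Cebpb (0.09 and -0.46) and Vegfa (-0.38 and 0.66) stayed within 2-fold at both ages. Between the injured libraries, 8 of 18 targets were lower at 2-fold or more on the young side and 0 were higher, against 1.80% and 3.09% of all genes, with Lbp, which binds lipopolysaccharide, at -2.07 and Hp (haptoglobin) at -1.78. As log2 ratios of adult against young, the sham libraries differed the same way for Lbp (1.3), Hp (0.86), Junb (1.45) and Vegfa (0.90). Of the same 8 genes, Lcn2 (0.35), Cebpd (0.35), Steap4 (0.23) and Saa3 (-0.10) differed less in sham. Many of the 18 targets are also expressed by macrophages and neutrophils, whose markers were given above. The part of these cells in the list was not tested.

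The libraries held 7457 to 8390 genes at 0, and their FPKM summed to 469939 to 533468. No depth is given with the FPKM, and the fragment numbers above hold only if the smallest step of the values is 1 fragment. Of the low values used to find that step, 37.8% to 39.7% per library lay near a multiple of it, so the fragment numbers are rough. Il6, Il11, Lif and Osm in the sham libraries and Cntfr in young injured cartilage, at 0.303 FPKM or about 16 fragments, are thus imprecise, and so are the ratios that use them.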

How the data were processed

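Articular cartilage RNA of 4 groups of mice was sequenced as 1 pooled library each (stranded, poly-A selected, paired-end). The authors deposited FPKM per gene on mm10. Per the labels, the submitters' processing notes name HISAT2 2.1.0, StringTie 1.3.4d, STAR and SAMtools, without their roles. Whether counting used strand is not given in the sources used here. FPKM hold no counts, whole fragments were not recovered, and no counting error can be given.

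From the deposited FPKM, the log2 ratio of FPKM + 1 was computed over 18181 genes above 0 in at least 1 library, and 2-fold was the threshold. No p-value was computed. The members, the gene lists, the threshold and the alternatives were chosen with earlier results of these data known. Genes named are the members, the genes of the 5 pathway lists, the markers, and for Cntfr and Socs3 the 3 genes (mean of at least 5 FPKM) with the smallest largest difference of centred log2(FPKM + 1). Serpina1d and Myl3 were named for their rank beside Cntfr, after their values were seen. Of the pathway lists as first set, 2 genes are not reported here. The marker Cnmd is listed under its older symbol Lect1. The chondrocyte, macrophage, neutrophil, endothelial, fibroblast and muscle sums are in the report, and those of the other marker lists in the closing section.

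Alternatives were pseudocounts of 0.1 and 5 FPKM, equal sums (TPM), median-of-ratios scaling, quantile normalization, a filter that kept genes reaching 1 FPKM in any library, and thresholds of 1.5-fold and 3-fold. The TPM scaling also raised every value against the added 1 FPKM. Shared sequence was the share of 31-base transcript words found in another gene. Motifs were searched on both strands in RefSeq windows of 250 bases of GRCm38.p6. Scripts were tested on simulated data. Python 3.11.15, numpy 2.4.6, pandas 2.3.3 and matplotlib 3.10.9 were used.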

Additional observations from a re-analysis of the deposited data

Results flagged for a closer look

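Socs2, an inhibitor of growth hormone and cytokine signalling, moved in opposite directions after injury at the 2 ages. It was at 9.49 FPKM in the young and 2.74 in the adult sham library, and 4.91 in the young and 8.25 in the adult injured library. The log2 ratio of FPKM + 1 was -0.83 in young cartilage and 1.31 in adult cartilage, and the latter was 0.94 with quantile normalization. With 1 library per group the difference between the ages was not tested. The sham libraries themselves differed, with a log2 ratio of adult against young of -1.49, and the injured libraries differed by less, at -0.65 for young against adult.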

How the results depend on the processing

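No paired analysis was possible because each group has 1 pooled library and the result comes from no test. For single members, 195 values kept their side of 2-fold under the planned settings (of these, 13 changed sign, all at 0.22 or less in size), 10 passed 2-fold only under the alternative, 7 no longer passed it, and none changed sign while past it. Cntfr, Osmr and Socs3 after injury in adult cartilage stayed past 2-fold in every planned setting, though Cntfr was chosen by its fall there. With a pseudocount of 0.1 FPKM, which weighs low genes more by construction, 6 members were higher and 1 lower in young injured cartilage, and 4 were lower in the young than in the adult injured library, while among all 18181 genes the counts were 1817, 768 and 843. With 5 FPKM, 2 members were higher in adult injured cartilage and 0 lower when the young injured library was set against the adult one, beside 434 and 143 of all genes. At 3-fold these counts were 3 and 0, beside 442 and 96 of all genes. With the young sham library in place of the adult sham library, a setting chosen after seeing the data, Cntfr in adult injured cartilage was at 0.67 and 0 members were lower. The cause was not tested. Levels under 1 FPKM rest on few fragments, and Il6 was left out by the filter of 1 FPKM.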

Other observations

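Other cell types were read through markers in the same 4 libraries, given as summed FPKM in the order sham and then injured for young mice, followed by sham and then injured for adult mice. Osteoblast markers (6 genes, such as Bglap) summed to 561, 823, 4887 and 5007, of which Ibsp made up 4136 in adult sham cartilage. Of the 6 genes, 4 were higher at 2-fold or more in adult than in young sham cartilage, against 2.66% of all genes. Phex and Sp7 were not, with log2 ratios of -0.45 and -0.01. Erythroid markers (4 genes) summed to 199, 295, 39.6 and 36.8, and B cell markers (4 genes) to 49.6, 69.8, 10.2 and 18.5, both higher in young libraries. Adipocyte markers (5 genes) summed to 54.8, 61.3, 69.4 and 43.6. Markers of T and NK cells summed to 0.531, 1.52, 0.445 and 2.82, and of neurons and glia to 2.53, 3.80, 2.25 and 4.48, with Snap25 at 0 in every library. A tendon and ligament list of 5 genes, added after the values were seen, summed to 64.5, 37.1, 703 and 98.9. Of this sum, Thbs4 made up 696 in adult sham cartilage. Tnmd, a marker of tendon cells, was at 2.04, 1.82, 0.0490 and 0.588, and Scx of the same list at 2.97, 9.75, 5.18 and 3.98. Between the sham libraries 2 of the 5 genes were higher in adults and 3 were lower.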
